A study of Homo sapiens with 12 samples.

Results

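The empty vector condition of the study is described here on its own, as the resting transcriptome of transfected HEK293T cells. It comprised 3 of the 12 RNA-seq libraries of the series, those whose labels name cells transiently transfected with empty vector, and every one of the 38019 genes of the deposited table was examined in them. The other 9 libraries came from cells given FLAG-tagged NRF1, NRF2 or NRF3 and were not used. All cells were HEK293T, grown in DMEM with fetal bovine serum, exposed to the FuGENE transfection reagent and harvested 24 h later. Total RNA was taken by an RNeasy kit, and the study describes the 3 libraries of a condition as biological triplicates. These cells are therefore not untouched: they had been given plasmid and reagent, and what those did to the values below was not tested. The libraries are of 1 permanent cell line, so they stand for this line and culture and not for embryonic kidney.

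HEK293 cells were derived from a human embryonic kidney culture that had been given sheared adenovirus DNA, and HEK293T cells carry in addition the SV40 large T antigen, a viral protein that binds tumour suppressors of the host. The line grows fast, takes up plasmids easily, and is used throughout biology to produce proteins and test signalling pathways. Its origin has long been debated because it carries transcripts of kidney progenitors, of neurons and of the adrenal. A baseline of this kind tells which receptors, sensors, stress pathways and transcription factors a transfected construct meets in the cell. Viral genes were not analysed here.

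Each library held close to the same number of counts: 13573453 in replicate 1, 13583306 in replicate 2 and 13595481 in replicate 3. A gene was called expressed where it reached 1 CPM (counts per 1000000 of its library's total) in each of the 3 libraries, which took about 14 counts. By this rule 13634 of the 38019 genes were expressed (35.9%). A further 9754 genes had a count in at least 1 library without reaching 1 CPM in all of them, and 14631 genes (38.5%) had no count in any library. Of the 19090 genes that RefSeq names as protein-coding, 12129 were expressed (63.5%) and 3126 had no count (16.4%), whereas of 10472 long noncoding RNA genes 858 were expressed (8.19%). A gene with no count over the 3 libraries could still be present at up to 0.0736 CPM, the level of 3 counts in the summed libraries, and this limit covers counting error only. The lists and families below hold mostly protein-coding genes, so their expressed shares are to be read against 63.5%, and their medians against the median of 8.54 CPM over all protein-coding genes.

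The 3 libraries were close replicates. Pearson's r of log2 CPM over the expressed genes, which are not independent of each other, was 0.995 to 0.996 between pairs. The median coefficient of variation (CV) of an expressed gene over the 3 libraries was 5.66%. The CV set by counting error, 1 over the square root of the mean count, had a median of 5.27%. In genes of under 50 counts the median CV, 15.4%, lay below the counting value, 18.5%. An observed CV can thus fall below the counting value, so the small gap over all genes does not measure the spread beyond counting. For genes of 1000 to 5000 counts the median CV was 3.43%, against 2.47% from counting, so that in well-counted genes the libraries differed by more than sampling. The common biological coefficient of variation, the spread left after counting error, was 0.0368. All values below are given as mean ± SD over these 3 libraries (n = 3), or for each library in the order of its replicate number.

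Human promoters differ widely in their content of the dinucleotide CG. Most human genes that are active in many tissues begin in a CpG island, a stretch where CG has escaped the loss that methylation brings elsewhere in the genome, and many genes of 1 tissue begin outside such islands. The 150 bases before the start site are shown for 4 genes that span the range met in these cells, with each CG in capitals, as RefSeq gives them on GRCh38.p14. EEF2, the translocation factor of translation, and SIX2, a nephron progenitor factor, were expressed. PAX8, a factor of the developing kidney tubule, and UMOD, which makes the uromodulin secreted by the loop of Henle, had no count in any library.

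EEF2, chr19:3985464-3985613, minus strand: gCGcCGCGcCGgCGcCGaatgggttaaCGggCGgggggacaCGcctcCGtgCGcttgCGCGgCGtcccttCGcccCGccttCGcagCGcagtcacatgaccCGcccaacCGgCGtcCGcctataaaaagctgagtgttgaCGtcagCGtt

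SIX2, chr2:45009453-45009602, minus strand: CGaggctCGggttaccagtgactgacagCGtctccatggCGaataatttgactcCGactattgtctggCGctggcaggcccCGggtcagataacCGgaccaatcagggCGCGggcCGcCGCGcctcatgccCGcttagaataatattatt

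PAX8, chr2:113278922-113279071, minus strand: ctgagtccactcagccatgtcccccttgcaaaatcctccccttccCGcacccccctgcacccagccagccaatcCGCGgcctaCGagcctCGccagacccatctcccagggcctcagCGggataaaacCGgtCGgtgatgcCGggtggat

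UMOD, chr16:20352716-20352865, minus strand: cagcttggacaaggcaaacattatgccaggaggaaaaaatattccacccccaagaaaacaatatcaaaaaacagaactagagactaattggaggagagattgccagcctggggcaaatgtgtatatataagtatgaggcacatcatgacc

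The EEF2 window held 24 CGs, the SIX2 window 14, the PAX8 window 9 and the UMOD window 0. Over the 250 bases before the start, the ratio of observed CG to that expected from the base composition was 1.25 for EEF2 and 0.967 for SIX2, against 0.518 for PAX8 and 0.171 for UMOD. PAX8 shows that a window with CGs did not by itself go with a count in these cells.

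Across the 20949 genes with a RefSeq window, the same measure separated the expressed genes from those without a count. Its median was 0.811 in 10161 expressed genes (quartiles 0.655 and 0.931), 0.401 in 4640 genes counted below the threshold and 0.211 in 6148 genes with no count (quartiles 0.106 and 0.379). Among genes with a ratio of 0.8 or more, 81.5% were expressed and 5.24% had no count. Among genes with a ratio under 0.2, 6.41% were expressed and 67.3% had no count. Protein-coding genes alone gave 89.3% expressed at 0.8 or more and 11.4% expressed under 0.2. The TATA box letters TATAAA were searched on both strands in the last 50 bases before each start of a gene. They stood in 2.57% of expressed genes, 6.99% of genes with no count and 4.55% of all genes with a window. Of the 78 keratin-associated protein genes, which build the hair shaft, 51.3% held TATAAA, and their median CpG ratio was 0.135. These are matches of letters, given as a description and not as sites.

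**Figure D1:**
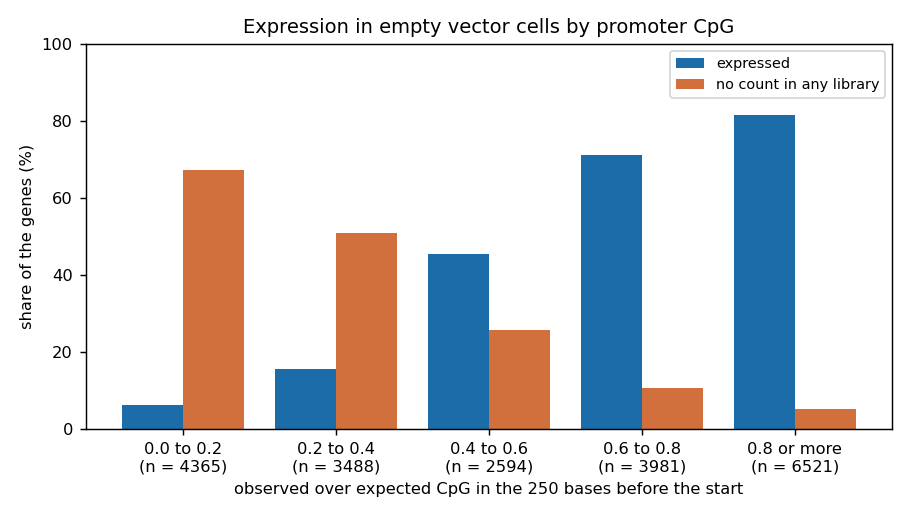
Share of genes (y axis, percent) that were expressed or had no count in any empty vector library, by the ratio of observed to expected CpG in the 250 bases before the start (x axis, with the number of genes in each band). The expressed share is 6.41% in the lowest band and 81.5% in the highest, and the share with no count runs the other way.

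Counts were spread over many genes. The 958 most abundant genes held 50% of all counts and 5816 genes held 90%. Of the expressed genes, 4010 had a mean below 10 CPM, 7290 lay between 10 and 100 CPM, 2252 between 100 and 1000 CPM and 82 at 1000 CPM or more, with a median of 26.5 CPM. The 10 most abundant genes took 6.38 ± 0.561% of the counts.

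Genes of the mitochondrial chromosome filled the top of the list. The first 9 places by mean CPM were mitochondrial. COX1, a core subunit of cytochrome c oxidase, had 10517, 9339.6 and 11252 CPM. ND4, a subunit of complex I, had 8769.7, 7395 and 9323 CPM, and COX3, a further oxidase subunit, had 8235, 7378 and 8618 CPM. Replicate 2 was the lowest of the 3 libraries for each of these genes. The 13 mitochondrial mRNAs together took 6.42%, 5.65% and 6.84% of the counts and the 2 mitochondrial ribosomal RNAs 0.622%, 0.559% and 0.663%, again lowest in replicate 2. Replicate 2 was in turn the highest for the 82 cytosolic ribosomal protein genes, which took 5.65%, 6.14% and 5.63% of the counts. The cause of this difference between libraries was not tested.

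EEF2 was the most abundant nuclear gene by mean CPM, with 3983, 4109.5 and 4272 CPM. Next by mean came RACK1, a scaffold protein of the small ribosomal subunit, with 3999.7, 4011 and 3865 CPM. RACK1 stood above EEF2 in replicate 1. TUBB, the main beta-tubulin, followed with 3712, 3765 and 3817 CPM. ACTG1, which encodes cytoplasmic gamma-actin, had 3318, 3508 and 3404 CPM, and HSPA8, the constitutive cytosolic HSP70, had 3481, 3386 and 3189 CPM. The rest of the 20 most abundant genes were RNR2, CYTB, ATP6, COX2, ND1, ND2 and ND5 of the mitochondrion, and EEF1A1, RPS4X, HSP90AA1, RPS6 and TUBA1B of the nucleus. Translation, the cytoskeleton and protein folding thus supplied all the nuclear genes among them. These ranks are by CPM, which does not divide by transcript length. Per length of the longest transcript (TPM, a scale explained below) the order differed. RACK1 had a mean of 5946 TPM, and the ribosomal protein genes RPL8 and RPS6 had 5529 TPM and 4611 TPM. EEF2 stood below these, at 3229 TPM. Of the mitochondrial genes, COX2 had 26353 TPM and COX1 16666 TPM.

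Among nuclear families whose members are needed in every cell, expression was near complete. All 77 mitochondrial ribosomal protein genes, all 78 nuclear genes of the oxidative phosphorylation complexes, all 8 subunits of the chaperonin CCT and all 12 SR splicing factors were expressed, as were 81 of 82 cytosolic ribosomal protein genes and 49 of 51 translation initiation factor genes. The exception among the ribosomal protein genes was RPL3L, the striated muscle copy of RPL3, at 0.0736 ± 0.0736 CPM. Of 39 proteasome genes 35 were expressed. Those left out were PSMA8, the testis subunit, and PSMB11, the thymus subunit, both with no count, and PSMB8 and PSMB9, subunits of the immunoproteasome, with 1 count of PSMB8 in each library and 0.564 ± 0.225 CPM of PSMB9. The constitutive proteasome subunits PSMB4 and PSMA4 had 438 ± 17.4 CPM and 414 ± 14.9 CPM, and PSMD2 of the regulatory particle had 401 ± 0.627 CPM.

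**Figure D2:**
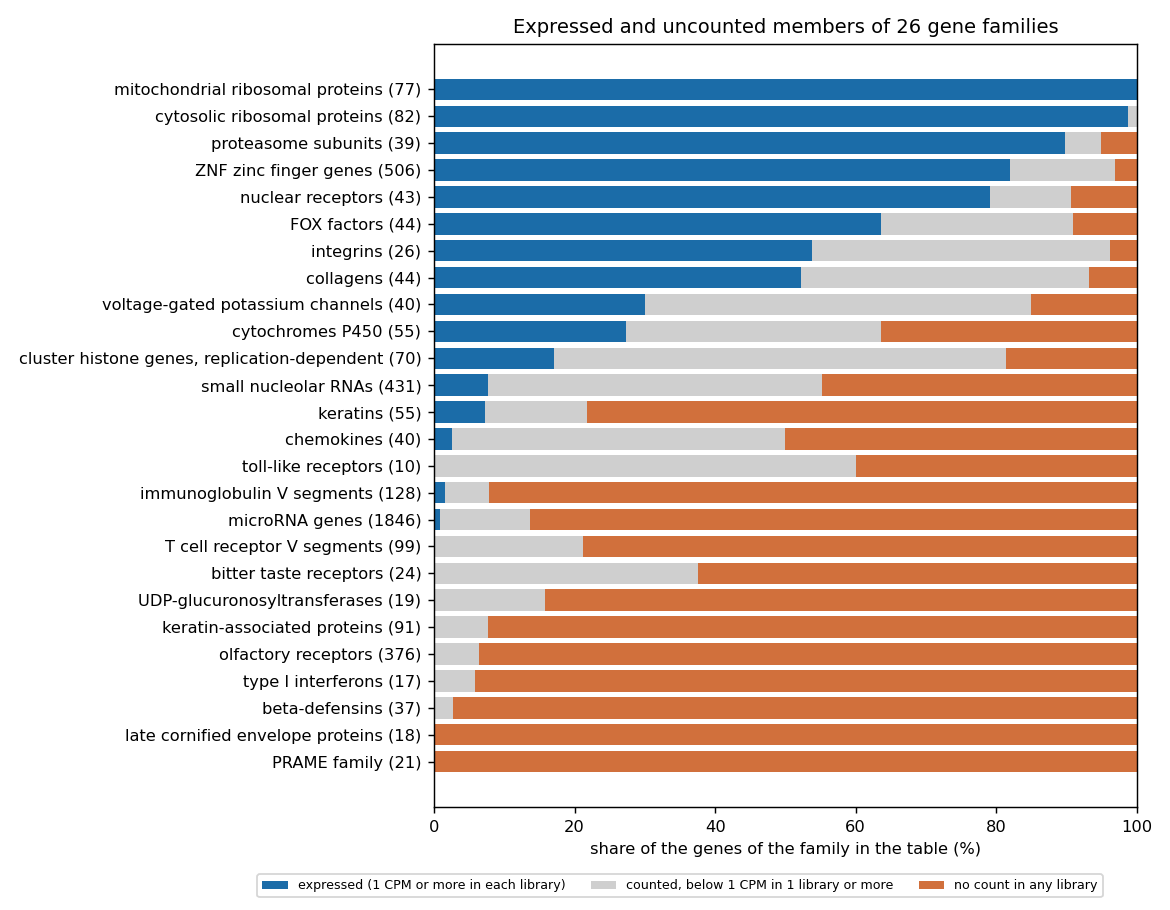
Share of the members of a selection of 26 gene families in the table (x axis, percent) that were expressed, were counted below the threshold or had no count in the empty vector libraries, with the number of members in parentheses. Ribosomal and proteasome families at the top are expressed in nearly all members, and the 9 families of this selection at the bottom have no expressed member.

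A gene's own name can miss its counts in this table, since many loci have a second, overlapping name. Of 122 read-through genes, named after a pair of neighbours that both stand in the table, 84 were expressed and 43 of these had a higher mean CPM than either neighbour. SENP3-EIF4A1 had 1990.3 ± 60.4 CPM, while EIF4A1, the helicase of translation initiation, had 3.56 ± 0.785 CPM under its own name. NME1-NME2 had 1005 ± 42.3 CPM and NME2, a nucleoside diphosphate kinase, had no count. TMX2-CTNND1 had 300.4 ± 11.2 CPM beside no count for CTNND1, the p120 catenin of cell junctions, and COMMD3-BMI1 had 114 ± 5.83 CPM beside no count for BMI1, a Polycomb protein. Antisense names can do the same, since the sources used here do not give whether counting used the strand. MIF, a cytokine made by most cells, had no count, and MIF-AS1 had 1035 ± 81.3 CPM. Of the 3126 protein-coding genes with no count, 51 were at least 50% covered by the exons of an expressed gene or were part of an expressed read-through gene, so for these the absence of a count says nothing of the transcript. Among members of the lists and families below with no count, ADORA2A and ZNF20 were among these 51. Of the 3835 protein-coding genes counted below the threshold, 47 were covered or part of a read-through in the same way. CLDN22, ITGB7 and ZNF625 of the families below were among these 47.

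Kidney genes were examined as 2 lists, factors and signals of development and markers of mature kidney segments. Of 22 factors and signals of kidney development 15 were expressed (68.2%), a share close to the 63.5% of all protein-coding genes, with a median of 3.17 CPM, under the 8.54 CPM of all protein-coding genes. CITED1, a transcriptional coactivator of the cap mesenchyme from which nephrons form, had 214, 206 and 212 CPM. SALL1, a zinc finger factor needed for kidney outgrowth, had 70.0, 75.5 and 72.8 CPM, and FOXD1, which marks the stromal progenitors, had 53.4, 52.3 and 51.8 CPM. All 3 libraries lay within a narrow range for each. SIX2, which keeps nephron progenitors undifferentiated, had 24.8, 24.1 and 25.1 CPM. HOXD11 and HOXA11, which act together in kidney patterning, had 42.6 ± 2.71 CPM and 35.3 ± 0.272 CPM. GATA3, a factor of the ureteric duct, had 30.5 ± 2.38 CPM, WT1, a factor of both progenitors and podocytes, had 10.2 ± 0.700 CPM, and PAX2, a master factor of the nephric lineage, had 1.40, 2.13 and 2.21 CPM. PAX8 and WNT9B, the duct signal that induces nephrons, had no count.

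Of 22 markers of the mature nephron 2 were expressed (9.09%, against 63.5% of all protein-coding genes), with a median of 0.0246 CPM. PODXL, the sialomucin of podocytes that many other cells also make, had 10.0, 11.2 and 9.86 CPM, and LRP2, the megalin endocytic receptor of the proximal tubule, had 9.06, 7.44 and 10.4 CPM. SYNPO, an actin-binding podocyte protein, lay at the threshold with 0.810, 1.10 and 1.03 CPM, and SLC5A2, the glucose transporter of the proximal tubule, had 1.03, 0.368 and 0.368 CPM. No count was found for the organic anion transporters SLC22A6 and SLC22A8, the salt transporter SLC12A1, UMOD, the water channel AQP2, the sodium channel subunits SCNN1B and SCNN1G, or the kidney cadherin CDH16. The libraries are of bulk RNA, in which fewer cells of a type and less RNA per cell cannot be told apart.

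Of 16 mesenchymal markers 11 were expressed (68.8%, median 8.40 CPM), close to the 63.5% and 8.54 CPM of all protein-coding genes. VIM, the filament vimentin, had 486, 473 and 489 CPM, CDH2, or N-cadherin, had 142, 139.5 and 146 CPM, and FN1, the matrix protein fibronectin, had 44.8, 45.8 and 50.5 CPM. VIM shares its locus with VIM-AS1, at 209 ± 12.1 CPM, and the reads of the 2 genes could not be told apart if strand was not used. The repressors of epithelial genes ZEB1, SNAI2 and ZEB2 had 44.9 ± 2.27 CPM, 40.5 ± 1.88 CPM and 30.0 ± 1.72 CPM. Of 17 epithelial markers 6 were expressed (35.3%, median 0.147 CPM), below both values. TJP1, the tight junction scaffold, had 87.8, 93.1 and 93.0 CPM, and the paired simple keratins KRT18 and KRT8 had 30.3 ± 1.34 CPM and 16.1 ± 0.467 CPM. CDH1, or E-cadherin, had 1.62, 1.25 and 1.32 CPM, and EPCAM, the epithelial adhesion molecule, stayed under the threshold at 0.712 ± 0.258 CPM. On the TPM scale (transcripts per 1000000), which divides by the length of the gene's longest transcript, CDH2 stood at 81.5 ± 1.29 TPM and CDH1 at 0.709 ± 0.0994 TPM, with no overlap of the libraries. KRT19, KRT7, KRT5, KRT14 and the epithelial factor GRHL2 had no count.

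Of 26 neuronal markers 15 were expressed (57.7%), a share close to the 63.5% of all protein-coding genes. Their median was 2.23 CPM, under the 8.54 CPM of all protein-coding genes. STMN1, a microtubule regulator also high in dividing cells, had 276, 294 and 266 CPM, and UCHL1, a ubiquitin hydrolase abundant in neurons, had 196, 193 and 188 CPM. The neurofilaments NEFM and NEFL had 107, 113 and 120.5 CPM and 76.3, 81.8 and 80.9 CPM. Each of these values was steady across the 3 libraries. Neuronal tubulin TUBB3 had 33.8 ± 2.92 CPM and the adhesion molecule NCAM1 21.0 ± 1.03 CPM. STMN2, DCX and ELAVL3, which appear early in neurons, had no count.

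Sympathoadrenal and neural crest markers (38.5% expressed) and adrenal cortex markers (10.0%) were expressed less often than all protein-coding genes (63.5%). Of 13 sympathoadrenal and neural crest markers 5 were expressed: TFAP2A, a neural crest factor, at 48.9 ± 1.74 CPM, GATA2 at 41.6 ± 1.72 CPM, ISL1 at 17.8 ± 0.536 CPM, FOXD3 at 4.69 ± 0.299 CPM and HAND2 at 2.04 ± 0.519 CPM. The specifier PHOX2A and the catecholamine enzymes TH and DBH had no count, nor did TFAP2B. Of 10 adrenal cortex markers only NR0B1, a nuclear receptor of the adrenal and gonad, was expressed, at 3.98, 2.94 and 3.24 CPM. NR5A1, the master factor of steroid-making cells, had 0.0982 ± 0.113 CPM, and the steroid enzymes CYP11A1, CYP11B1, CYP11B2, CYP21A2 and HSD3B2 and the corticotropin receptor MC2R had no count.

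Markers of other cell types served as a check on what else could be in the culture. None of 10 endothelial and none of 14 liver markers was expressed, with summed levels of 0.834 ± 0.153 CPM and 1.74 ± 0.333 CPM. CYP2E1, a liver enzyme, had 1.06 ± 0.112 CPM and passed 1 CPM in 2 libraries, so that without replicate 1 it counted as 1 expressed liver marker. Of 15 leukocyte markers 2 were expressed: CD68, a lysosomal protein not limited to macrophages, at 2.58 ± 0.529 CPM, and CD8A, the T cell coreceptor, at 1.67 ± 0.594 CPM. The common leukocyte antigen PTPRC had 0.515 ± 0.368 CPM and the myeloid factor SPI1 0.319 ± 0.170 CPM. Of 13 erythroid markers only HBA2, an alpha-globin gene, was expressed, at 2.14, 2.21 and 2.72 CPM. Its near-identical copy HBA1 had 0.958, 1.18 and 3.53 CPM, HBB had 0.368, 0.221 and 1.32 CPM, and reads of HBA1 and HBA2 may have been split between them. Replicate 3 was the highest for all 3 globin genes, and without replicate 1 HBA1 passed as well, which gave 2 erythroid markers. Of 13 muscle markers 3 were expressed, ACTA1 with 18.1 ± 2.06 CPM, TTN with 16.4 ± 1.56 CPM and MYH3 with 1.91 ± 0.222 CPM. Per length ACTA1 stood at 30.0 ± 3.51 TPM and TTN, a very long transcript, at 0.371 ± 0.0328 TPM, and MYOG, the factor that completes muscle differentiation, had no count.

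Stem cell and placental genes were present as single members. Of 15 pluripotency and germ cell markers 4 were expressed: LIN28B, which blocks maturation of let-7 RNAs, at 18.6 ± 0.587 CPM, and the transcription factors SOX2 at 14.2 ± 1.34 CPM, KLF4 at 5.55 ± 0.488 CPM and SALL4 at 1.57 ± 0.154 CPM. POU5F1, the OCT4 factor, had 0.442 ± 0.0733 CPM, and NANOG, DPPA4, TDGF1, ZFP42, DAZL and DDX4 had no count. Of 16 placental hormone genes GH2, placental growth hormone, had 5.08, 6.55 and 4.56 CPM and CGA, the shared alpha subunit of the glycoprotein hormones, had 1.69, 1.03 and 1.32 CPM. The neighbours of GH2 in the growth hormone cluster, GH1, CSH1, CSH2 and CSHL1, had no count in any library, although their sequences are close to that of GH2.

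**Figure D3:**
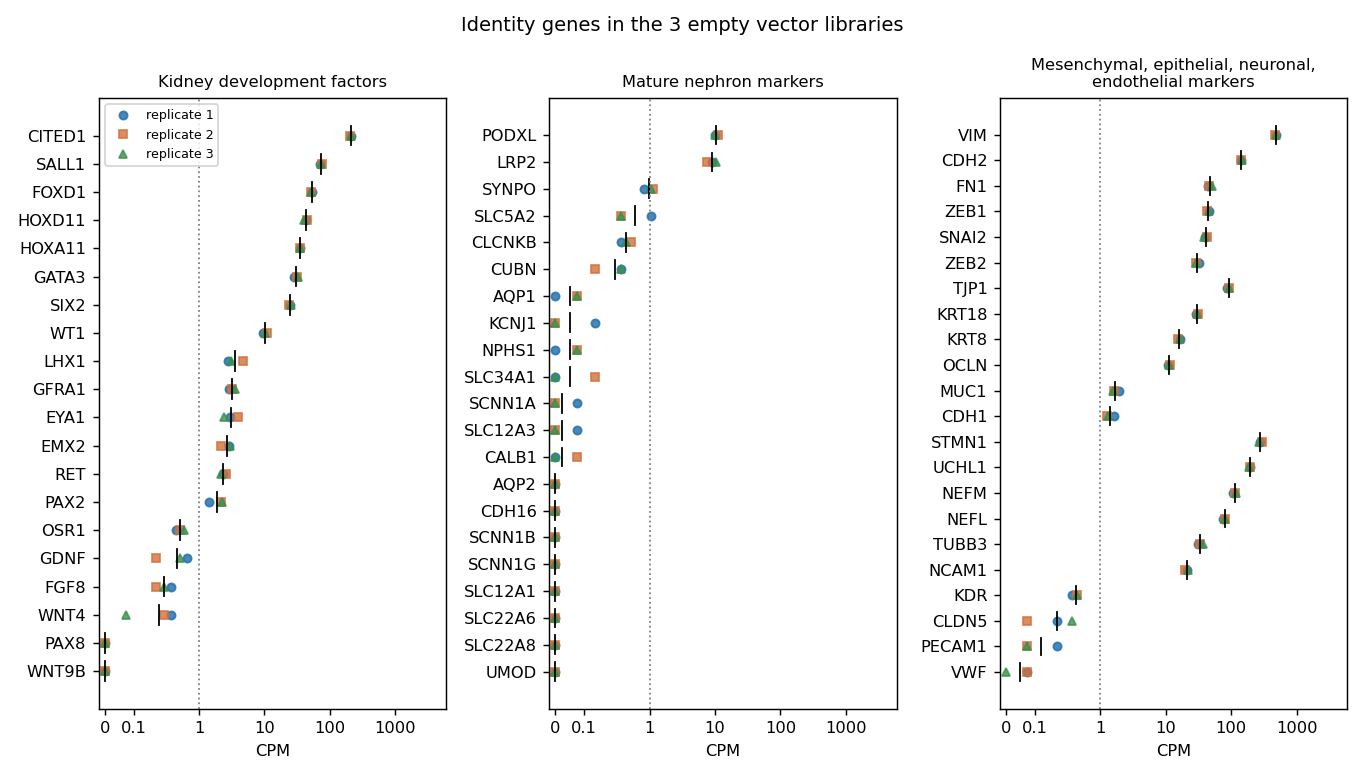
CPM (x axis, logarithmic above 0.1 and linear below) of a selection of identity genes in each of the 3 empty vector libraries (points) with the mean (vertical bar). The dotted line marks 1 CPM. Kidney development factors lie mostly above it and mature nephron markers mostly below it or at 0, and the endothelial markers KDR, CLDN5, PECAM1 and VWF lie below it.

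Nearly all genes of the HOX family were expressed. The 4 HOX clusters encode homeodomain proteins that give each level of the trunk its identity, and in the embryo a gene's place in its cluster, given by its paralogue number, goes with how far to the rear it is used. All 11 genes of HOXA, 9 of 10 of HOXB, 8 of 9 of HOXC and 7 of 9 of HOXD were expressed. HOXB1 had no count, HOXC12 had 0.0246 ± 0.0425 CPM, HOXD12 had 0.245 ± 0.0851 CPM and HOXD1 had 1.18, 1.18 and 0.809 CPM.

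Per transcript length a pair of posterior genes stood highest, as the plot of HOX levels by paralogue number shows. HOXA10, a posterior gene, reached 173 ± 3.29 TPM, with libraries between 169 and 175 TPM. HOXD13, the last gene of its cluster, reached 118 ± 5.19 TPM, and HOXA5, a gene of the trunk, reached 89.0 ± 1.78 TPM. The HOXD cluster was ordered by position: HOXD1 had a mean of 1.33, HOXD3 of 3.32, HOXD4 of 7.02, HOXD8 of 10.3, HOXD9 of 25.1, HOXD10 of 45.3, HOXD11 of 68.8 and HOXD13 of 118 TPM, and each of these stood above the gene before it in all libraries. HOXD12 alone broke this order, at 0.462 TPM. HOX levels used the longest transcript of each gene, and their order was not tried with the median transcript length. No such order ran through the other clusters. In HOXB, HOXB9 had 60.4 ± 0.790 TPM and HOXB6 51.3 ± 2.91 TPM, with HOXB7 between them in position at 19.9 ± 0.761 TPM and HOXB13 at 8.58 ± 0.514 TPM. In HOXC, HOXC4 at 47.6 ± 1.80 TPM and HOXC9 at 48.4 ± 1.70 TPM overlapped in their ranges and stood over the genes between them. In HOXA the read-through name HOXA10-HOXA9 held a further 136 ± 3.16 CPM, so the levels of HOXA9 and HOXA10 are uncertain.

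**Figure D4:**
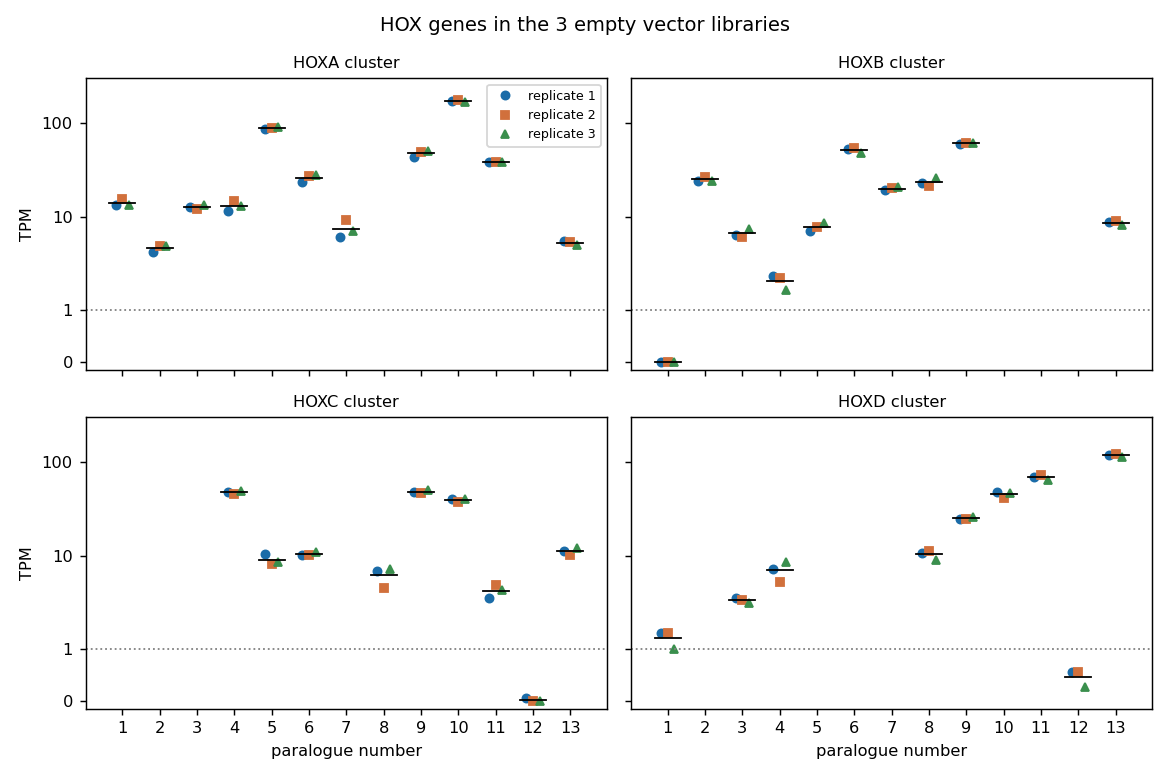
Level per transcript length (y axis, TPM, logarithmic above 1 and linear below) of the HOX genes of each cluster by paralogue number (x axis) in the 3 empty vector libraries, with the mean as a bar. HOXA10 has the highest mean, and in HOXD the level is higher at each step toward HOXD13, with HOXD12 as the exception.

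Other developmental factors came from more than one lineage. Of the GATA factors, GATA2, GATA6, GATA3 and GATA4 had 41.6 ± 1.72 CPM, 40.5 ± 1.89 CPM, 30.5 ± 2.38 CPM and 21.1 ± 1.66 CPM, while the blood factor GATA1 and the endodermal GATA5 had 0.0736 ± 0.0736 CPM and 0.294 ± 0.195 CPM. Of 9 PAX factors 5 were expressed: PAX6 of the eye and brain at 30.2 ± 0.722 CPM, PAX3 of the neural crest and muscle at 12.3 ± 1.39 CPM, PAX9 at 5.35 ± 0.435 CPM, PAX2 as above and PAX7 at 1.18 ± 0.195 CPM. PAX8 and PAX4 had no count. At a threshold of 1 TPM in each library in place of 1 CPM, 3 PAX factors passed. The LIM factors ISL2 and ISL1 had 33.6 ± 1.56 CPM and 17.8 ± 0.536 CPM, and the sensory neuron factor POU4F1 had 22.2 ± 0.243 CPM. TBX1, TBX3 and TBX2, T-box factors of the pharynx, limb and heart, had 65.4 ± 1.53 CPM, 58.6 ± 3.11 CPM and 29.9 ± 2.26 CPM. The widely used octamer factor POU2F1 had 67.1 ± 6.17 CPM.

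Of 44 FOX genes 28 were expressed (63.6%, against 63.5% of all protein-coding genes), with FOXM1, the driver of mitotic genes, at 244 ± 9.80 CPM, FOXK2 at 186 ± 3.30 CPM and FOXC1 at 116 ± 4.13 CPM. Of 19 SOX genes 10 were expressed (52.6%), with SOX12 at 54.0 ± 0.792 CPM and SOX4 at 36.3 ± 1.43 CPM, and SOX17 of the endoderm had no count. Of 43 nuclear receptor genes 34 were expressed (79.1%). NR1D2, a repressor of the circadian clock, had 122 ± 4.37 CPM, and the COUP factors NR2F2 and NR2F1 had 90.7 ± 1.66 CPM and 65.6 ± 0.948 CPM. PPARG, the adipocyte receptor, had 37.9, 40.7 and 37.8 CPM, and NR3C1, the glucocorticoid receptor, had 37.2, 37.6 and 37.9 CPM. No count was found for the estrogen receptor ESR1, the liver and tubule factor HNF4A or NR0B2.

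Zinc finger genes and general DNA-binding factors were expressed in most members. Of 506 ZNF zinc finger genes 415 were expressed and 16 had no count, and together they took 0.951% of all counts. ZNF207, a spindle assembly protein, had 486 ± 16.7 CPM, and ZNF703 and ZNF503, a related pair of transcriptional repressors, had 304 ± 2.81 CPM and 282 ± 6.57 CPM. Of 45 DNA-binding factors listed because they are widely expressed 44 were expressed, a share that this choice largely sets. YBX1, which also binds mRNA, had 1287 ± 27.1 CPM, MAZ, a zinc finger promoter factor, had 1122 ± 19.6 CPM and TCF3, a basic helix-loop-helix factor, had 227 ± 4.75 CPM. The exception was MYCN, at 0.417 ± 0.113 CPM, and its relative MYC had 154, 159 and 164 CPM. Among 18 chromatin modifiers only DNMT3L, the germ cell cofactor of DNA methylation, was missing, with no count, and the maintenance methyltransferase DNMT1 had 381 ± 17.9 CPM and the deacetylase HDAC2 579.6 ± 6.84 CPM.

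Cell cycle genes were expressed throughout. All 24 genes of proliferation and replication were expressed. The helicase subunits MCM7 and MCM4 had 747, 754 and 756 CPM and 529, 528 and 531 CPM, and TOP2A, the topoisomerase of mitosis, had 569.7, 549.9 and 514 CPM. BIRC5, an inhibitor of apoptosis at the mitotic spindle, had 366 ± 12.6 CPM. All 11 cell cycle inhibitors were expressed as well. CDKN2A, whose locus encodes p16 and ARF, had 185, 183 and 175 CPM, RB1 had 66.5 ± 1.93 CPM, and CDKN1A, the p21 inhibitor, had 12.1 ± 0.644 CPM. Per length CDKN2A stood at 349 ± 12.7 TPM and CDKN1A at 13.3 ± 0.754 TPM. The D-type cyclins and their kinases were uneven: CDK4 had 340.3 ± 10.6 TPM and CDK6 0.874 ± 0.223 TPM, and CCND3 held 73.5 ± 1.04% of the summed TPM of the D cyclins, CCND1 18.6 ± 1.11% and CCND2 7.93 ± 0.341%.

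The study's own subject is the CNC family, bZIP factors that pair with small MAF proteins on antioxidant response elements, and of 10 such factors and partners 8 were expressed. NFE2L1, which encodes NRF1 and controls the proteasome genes, had 95.6, 101 and 101 CPM. NFE2L2, which encodes the oxidative stress factor NRF2, had 97.4, 89.2 and 89.0 CPM, and NFE2L3, which encodes NRF3, had 35.6, 32.5 and 35.7 CPM. KEAP1, the adaptor that brings NRF2 to degradation, had 86.7 ± 2.38 CPM and BACH1, a repressor at the same elements, 23.7 ± 1.18 CPM. The partners MAFG and MAFK were low, at 4.10 ± 1.00 CPM and 2.97 ± 0.499 CPM, BACH2 had 3.29 ± 0.434 CPM, and MAFF and the blood factor NFE2 were under the threshold at 0.417 ± 0.0850 CPM and 0.172 ± 0.236 CPM. Per length NFE2L2 stood above NFE2L1 (79.8 ± 4.31 TPM against 51.5 ± 1.62 TPM) with the longest transcript of each gene as its length, and below it with the median transcript length.

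Of 37 antioxidant and detoxifying genes 30 were expressed. The peroxide reductases PRDX1 and PRDX3 had 707 ± 12.4 CPM and 627 ± 16.6 CPM, GSTP1, a glutathione transferase, had 369.9 ± 17.0 CPM and SOD1, the cytosolic superoxide dismutase, 337 ± 11.9 CPM. The pentose phosphate enzyme TKT had 603 ± 15.7 CPM and PRDX2 334 ± 14.2 CPM. Genes widely used as readouts of NRF2 ran from absent to moderate. HMOX1, heme oxygenase, had 57.8, 65.6 and 62.9 CPM, and NQO1, a quinone reductase, had 7.22, 8.39 and 6.55 CPM. The limiting enzymes of glutathione synthesis GCLC and GCLM had 45.8 ± 1.07 CPM and 37.1 ± 3.55 CPM, the cystine importer SLC7A11 8.34 ± 0.399 CPM and sulfiredoxin SRXN1 8.74 ± 0.506 CPM. Of the 5 aldo-keto reductases of the list AKR1B1 was expressed at 219.9 ± 4.25 CPM, and the other 4 were not, with AKR1C2 at 0.442 ± 0.221 CPM, AKR1C1 at 0.196 ± 0.0426 CPM, AKR1B10 at 0.0245 ± 0.0425 CPM and AKR1C3 at no count, and GSTA1, the liver alpha-class transferase, also had no count.

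Protein folding genes were abundant. Of 21 cytosolic and mitochondrial chaperone genes 18 were expressed, and they took 1.39% of all counts. Besides HSPA8, the HSP90 pair HSP90AA1 and HSP90AB1 had 2774, 2707 and 2583 CPM and 2212, 2200.3 and 2161 CPM, and the mitochondrial chaperonin HSPD1 had 1143 ± 39.6 CPM. The heat-inducible twins HSPA1B and HSPA1A had 897 ± 43.0 CPM and 848 ± 49.7 CPM, which may share reads because their coding sequences are nearly identical. In contrast HSPA6, a strictly heat-inducible HSP70, had 0.663, 0.957 and 0.294 CPM and the small heat shock genes HSPB8 and CRYAB 1.01 ± 0.279 CPM and 0.123 ± 0.113 CPM. Of 21 genes of the unfolded protein response of the endoplasmic reticulum 20 were expressed. The lumenal chaperones HSP90B1, CALR, CANX and HSPA5 had 947 ± 17.5 CPM, 901 ± 10.9 CPM, 861 ± 29.7 CPM and 723 ± 31.2 CPM. The 1 that was not was ERN2, the gut relative of the sensor IRE1, at 0.0245 ± 0.0425 CPM.

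Genes of the amino acid response were also expressed in almost every member (95.2%, against 63.5% of all protein-coding genes). Whether the response was active was not tested. Of 21 genes of the ATF4 response 20 were expressed, the exception being the hormone FGF21 at 0.0736 ± 0.0736 CPM. ATF4 itself had 590.5, 575 and 583 CPM, the serine synthesis enzymes PHGDH and PSAT1 455 ± 12.3 CPM and 139 ± 2.54 CPM, and asparagine synthetase ASNS 175 ± 2.29 CPM. The stress-induced factor ATF3 had 66.0 ± 3.25 CPM, the apoptotic factor DDIT3 8.05 ± 0.221 CPM, the pseudokinase TRIB3 8.79 ± 1.05 CPM and the glutathione-degrading CHAC1 2.18 ± 0.590 CPM.

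Immediate early and hypoxia genes were expressed in most members, and metallothioneins in few. Of 20 immediate early genes 17 were expressed. JUN had 170.0, 186 and 178 CPM, whereas its partner FOS had 1.69, 1.47 and 1.18 CPM, FOSB 1.06 ± 0.225 CPM and EGR1, the growth factor response gene, 4.02 ± 0.791 CPM. Per length JUN stood at 125 ± 6.02 TPM and FOS at 1.66 ± 0.306 TPM. Of 20 hypoxia genes 18 were expressed, with the oxygen-regulated factor HIF1A at 158 ± 8.43 CPM and its target VEGFA at 12.8 ± 0.913 CPM, and CA9, the carbonic anhydrase switched on by low oxygen, had no count. Of 11 metallothioneins, small metal-binding proteins, MT1X and MT2A were expressed with 4.20, 5.23 and 5.08 CPM and 4.64, 4.64 and 3.68 CPM, 4 were below the threshold and MT1B, MT1E, MT1H, MT3 and MT4 had no count.

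Genes that sense foreign nucleic acid were expressed in part. Sensors in the cytosol and endosome report viral or plasmid DNA and RNA through a few adaptors to the kinase TBK1 and the factor IRF3, which switch on interferon genes. MAVS, the adaptor of the RNA sensors, had 109.6, 102 and 115 CPM, IRF3 had 78.6, 75.8 and 76.6 CPM and TBK1 had 65.8, 66.8 and 63.3 CPM. MB21D1, which encodes the DNA sensor cGAS, had 0.295, 0 and 0.147 CPM, and TMEM173, which encodes its adaptor STING, had 3.46, 4.27 and 3.02 CPM. DDX58, the RNA sensor RIG-I, had 2.28, 2.43 and 3.16 CPM and IFIH1, or MDA5, had 0.221, 0.442 and 0.883 CPM. The DNA sensor IFI16 had 0.270 ± 0.170 CPM, and the endosomal receptors TLR3 0.442 ± 0.128 CPM and TLR9 2 counts in each library, and TLR7, TLR8 and AIM2 had no count. In all, 10 of 20 sensing genes were expressed (50%, against 63.5% of all protein-coding genes), among them the double-stranded RNA kinase EIF2AK2 at 35.9 ± 1.27 CPM and the nucleotide hydrolase SAMHD1 at 50.8 ± 0.960 CPM.

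Of 28 genes of the interferon response 12 were expressed 24 h after transfection of empty vector (42.9%, median 0.748 CPM, against 63.5% and 8.54 CPM for all protein-coding genes). STAT2, which carries the interferon signal, had 32.1, 31.3 and 31.8 CPM, and IRF9, its partner, had 7.07, 4.71 and 7.43 CPM. IFIT5 had 22.7 ± 1.79 CPM, the deconjugating enzyme USP18 10.9 ± 0.355 CPM and IFITM1 6.40 ± 1.38 CPM. Classical markers of an interferon response were close to 0, with MX1 at 0.0491 ± 0.0851 CPM, OAS1 at 0.0737 ± 0.128 CPM and IFI27 at 0.294 ± 0.0738 CPM, and RSAD2, IFI44, XAF1 and CXCL10 had no count. Of 20 cytokine and interferon genes 2 were expressed, TGFB1 with 29.1, 30.8 and 33.0 CPM and IL12A, a subunit of interleukin 12, with 1.69, 1.69 and 1.99 CPM. IL1B passed 1 CPM in replicate 3 only, with 0.884, 0.442 and 1.91 CPM. IFNB1, IFNA1, IFNG, IFNL1, IL1A, IL10 and CSF2 had no count, and IL6 and TNF had 0.0736 ± 0.0736 CPM and 0.0245 ± 0.0425 CPM. None of 10 toll-like receptor genes was expressed, although TLR6 had 1.25, 0.957 and 1.03 CPM, TLR5 0.810 ± 0.295 CPM and TLR1 0.712 ± 0.185 CPM, so that 3 passed at a threshold of 0.5 CPM and 1, TLR6, at 1 CPM without replicate 2.

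**Figure D5:**
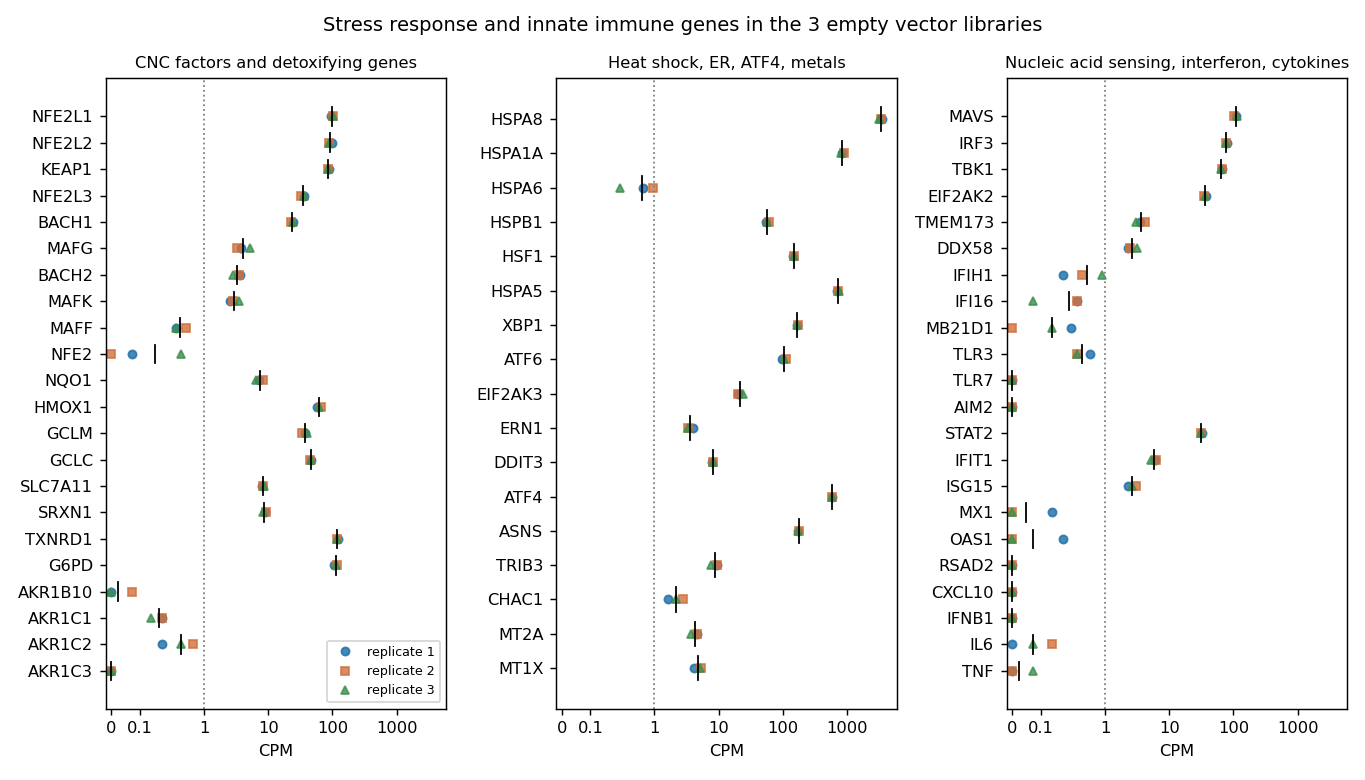
CPM (x axis, logarithmic above 0.1 and linear below) of a selection of stress response and innate immune genes in each of the 3 empty vector libraries (points) with the mean (vertical bar). The dotted line marks 1 CPM. NFE2L1, HSPA8, ATF4 and MAVS lie far above it, and the sensors MB21D1, TLR7 and AIM2 and the targets MX1 and RSAD2 lie below it or at 0.

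Antigen presentation split by class. All 6 class I HLA genes were expressed, with HLA-C at 167 ± 7.60 CPM and HLA-B at 121 ± 1.69 CPM. Per length HLA-C and HLA-B held 37.2 ± 0.479% and 32.9 ± 0.812% of the class I sum. Of 13 class II genes 7 were expressed at low level, with HLA-DPA1 at 10.6 ± 1.12 CPM and HLA-DQB1 at 9.32 ± 1.33 CPM, and HLA-DRA, the alpha chain of the DR molecule, was under the threshold at 0.810 ± 0.195 CPM.

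Of 28 receptor tyrosine kinases 20 were expressed (71.4%, against 63.5% of all protein-coding genes), and 16 reached 1 TPM in each library. The fibroblast growth factor receptor FGFR1 had 101, 102 and 100.1 CPM, MET, the hepatocyte growth factor receptor, 97.9, 94.8 and 95.7 CPM, and ERBB2 74.9, 77.1 and 82.4 CPM. Per length the 4 FGF receptors ran from FGFR1 at 40.2 ± 0.626 TPM to FGFR2 at 25.2 ± 0.428 TPM. EGFR, the epidermal growth factor receptor, had 4.64, 3.90 and 5.44 CPM, and AXL, NTRK2, NTRK3 and PDGFRB were all under 1 CPM.

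Of 45 hormone and transmitter receptors that are often studied in this cell line, 17 were expressed (37.8%). The adenosine receptor ADORA2B had 26.1, 30.6 and 26.3 CPM and the thrombin receptor F2R 22.7, 22.97 and 22.5 CPM. The purine receptors P2RY11 and P2RY1 had 7.83 ± 1.31 CPM and 7.61 ± 0.452 CPM, the protease receptor F2RL1 11.1 ± 0.341 CPM and the lysophosphatidic acid receptor LPAR1 6.80 ± 0.850 CPM. The read-through name PPAN-P2RY11 held a further 8.71 CPM, so the level of P2RY11 is uncertain. The chemokine receptor CXCR4 had 4.71 ± 0.463 CPM. The muscarinic receptor CHRM3 had 0.737, 1.18 and 1.32 CPM and so missed the threshold in part of the libraries. No count was found for ADRB3, ADRA1A, CHRM1, CHRM2, DRD1, HTR1A, OPRK1, CNR2, GLP1R or GCGR. ADORA2A also had none, but the read-through SPECC1L-ADORA2A, which covers it, had 97.8 ± 6.43 CPM.

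Excitable-cell channels were expressed in part. Of 10 voltage-gated sodium channel genes 5 were expressed, of 10 calcium channel pores 5, with CACNA1H of the T-type at 37.2 ± 4.40 CPM, and of 40 potassium channel genes 12, with KCNC4 at 37.0 ± 0.694 CPM. For such long transcripts the scale matters: at 1 TPM in each library 1 sodium channel and 1 calcium channel gene passed. Of 16 nicotinic receptor subunits 4 were expressed, with CHRNA5 at 71.7 ± 2.32 CPM. Among TRP channels TRPM7, a channel joined to a kinase, had 101 ± 2.67 CPM and the capsaicin receptor TRPV1 7.21 ± 0.709 CPM. The GABA-A receptor subunits GABRD and GABRA3 had 2.11 ± 0.260 CPM and 2.04 ± 0.154 CPM, and 10 of 19 subunits had no count.

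In glucose metabolism 1 isoenzyme held nearly all of the level at some steps and several shared others. Of 26 glycolytic genes 21 were expressed, and together the list took 1.32% of all counts. GAPDH had 2371, 2462 and 2354 CPM and ENO1, the common enolase, 2023, 2119 and 2092 CPM. Per length ALDOA held 98.9 ± 0.128% of the aldolases, ENO1 99.6 ± 0.0470% of the enolases and PKM nearly all of the pyruvate kinase, while HK1 held 80.5 ± 0.538% and HK2 19.4 ± 0.564% of the hexokinases. Of the phosphofructokinases PFKM held 39.4 ± 1.85%, PFKP 38.8 ± 1.52% and PFKL 21.8 ± 0.347%, and the first 2 overlapped in their libraries. The liver form PKLR had 0.0491 ± 0.0851 CPM. For lactate dehydrogenase, LDHB stood above LDHA per length (2705 ± 76.0 TPM against 1845 ± 59.0 TPM) when the longest transcript was used and below it with the median transcript, so their order is not settled. The glucose transporters SLC2A8, an intracellular form, and SLC2A1, the common GLUT1, overlapped in their libraries, at 38.8 ± 2.56 TPM and 37.0 ± 0.843 TPM, and SLC2A2 and SLC2A5 had no count.

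Structural proteins were shared among a few isoforms. TUBB held 69.9 ± 0.210% and TUBB4B 19.9 ± 0.159% of the summed TPM of beta-tubulins. TUBA1B had 1944 ± 89.5 TPM, TUBA1A 1224 ± 61.5 TPM and TUBA1C 1207 ± 62.9 TPM, 3 alpha-tubulin genes so alike that reads could be assigned to the wrong one. ACTG1 and ACTB, the cytoplasmic actins, held 59.9 ± 0.315% and 40.1 ± 0.315% of their sum with the longest transcript, an order that turned with the median transcript. EEF1A1 held 95.8 ± 0.339% of elongation factor 1 alpha and EEF1A2, the form of muscle and neurons, 4.18 ± 0.339%. Of the integrins ITGB1, the common beta chain, had 196 ± 8.73 CPM, and of the collagens the subunit genes COL6A1 and COL4A2 had 61.5 ± 6.22 CPM and 51.7 ± 2.98 CPM.

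The genes of the replication-dependent histone clusters make mRNAs that for the most part end in a stem-loop and carry no poly(A) tail. Of 70 such genes 12 were expressed, with a sum of 79.9 ± 1.46 CPM. At 0.5 CPM 22 of them passed, and at 1 TPM, which divides by their short length, 24. HIST1H2BK had 19.5 ± 0.240 CPM and the linker histone HIST1H1C 12.8 ± 0.399 CPM. Of 16 replacement and orphan histone genes 11 were expressed with a sum of 1489.7 ± 37.3 CPM, led by H2AFY at 423 ± 13.9 CPM, H2AFZ at 257 ± 3.82 CPM and H3F3B at 162 ± 3.90 CPM. The sources used here do not give whether poly(A) RNA was selected. Of other short RNAs, none of 62 snRNA genes, 15 of 1846 microRNA genes and 33 of 431 small nucleolar RNA genes were expressed. At 0.5 CPM 27 microRNA and 58 small nucleolar RNA genes passed, and at 1 TPM 87 and 145. The 4 copies of MIR1244 had 13.9, 13.7, 13.6 and 13.4 CPM, and SNORD141A and SNORD141B 212 ± 10.6 CPM and 204 ± 14.6 CPM. Such copies may share reads, and counts under them were not tested as mature small RNAs.

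Whole gene families were silent. Of 376 olfactory receptor genes none was expressed, and 352 had no count. At 0.5 CPM in each library 1 of the 376 passed, and at 1 TPM 1 passed. The summed level of all 376 was 2.26 ± 0.478 CPM, and the 3 highest, OR2W3, OR1F1 and OR2B6, had 0.761 ± 0.298 CPM, 0.393 ± 0.307 CPM and 0.294 ± 0.321 CPM. The other chemosensory families were alike, with no expressed gene among 24 bitter taste receptors, 4 vomeronasal receptors and 6 trace amine receptors, the last without a single count. TAS2R14, a broadly tuned bitter receptor, had 0.417 ± 0.378 CPM. The median CpG ratio before the start of the olfactory receptor genes was 0.129, against 0.601 for all genes with a window.

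Most families of the skin and gut barrier had few or no expressed members. None of 91 keratin-associated protein genes, 18 late cornified envelope genes, 10 small proline-rich genes, 37 beta-defensins or 6 alpha-defensins was expressed, and all 18 late cornified envelope genes had no count. Of 55 keratins 4 were expressed, KRT18, KRT8, KRT10 with 24.96 ± 1.02 CPM and KRT222 with 4.42 ± 0.765 CPM. Of 24 claudins, which seal epithelial junctions, CLDN12 and CLDN15 were expressed with 19.3 ± 0.368 CPM and 8.20 ± 1.44 CPM, and of 18 mucins MUC1 with 1.69 ± 0.196 CPM. At 1 TPM in each library no mucin passed.

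Immune receptor families gave a pair of exceptions. Of 128 immunoglobulin V segments IGLV5-52 and IGLV1-51 were expressed with 5.23, 2.94 and 4.63 CPM and 1.25, 1.62 and 1.54 CPM, and 118 had no count. None of 99 T cell receptor V segments, 7 killer cell immunoglobulin-like receptors, 10 leukocyte immunoglobulin-like receptors, 17 type I interferons or 7 guanylate-binding proteins was expressed. Of 40 chemokines only CXCL16, which is made as a membrane protein, was expressed, at 4.20, 2.94 and 3.68 CPM, and of 39 interleukins IL17D and IL12A, with 2.23 ± 0.237 CPM and 1.79 ± 0.169 CPM.

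Germline and placental families differed in how many members were expressed. The cancer-testis genes of the MAGE family, active in the male germ line and in many tumours, had 7 of 26 members expressed. MAGEA3 and MAGEA6 had 30.9, 32.2 and 33.2 CPM and 31.8, 30.8 and 29.8 CPM, MAGEA2 and MAGEA2B 12.8 ± 1.15 CPM and 12.7 ± 0.964 CPM, and MAGEB2 11.8 ± 1.61 CPM. The first 4 form 2 pairs of near-identical copies whose reads may be shared. Of 23 GAGE and XAGE genes GAGE2A was expressed, at 1.18, 1.40 and 1.77 CPM, and 16 were counted below the threshold, where copies again share sequence. Without replicate 1 or without replicate 2, 2 of the 23 passed, at 0.5 CPM 6 and at 1 TPM 8. None of 18 SSX and SPANX genes, 21 genes of the PRAME family, 10 pregnancy-specific glycoproteins or 5 protamine and transition protein genes was expressed, and the PRAME family and protamine genes had no count at all.

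Families of liver and neuron ended between these extremes. Of 55 cytochrome P450 genes 15 were expressed. CYP51A1 of cholesterol synthesis had 85.4 ± 2.67 CPM and CYP26A1, which degrades retinoic acid, 10.1 ± 2.43 CPM, whereas none of 19 UDP-glucuronosyltransferases was expressed. Of 16 clustered beta protocadherins, cell surface proteins that label single neurons, none was expressed, but 14 had counts, up to PCDHB2 at 0.932 ± 0.297 CPM. In the alpha and gamma clusters PCDHGC3 had 38.8 ± 2.01 CPM, PCDHGA11 7.51 ± 0.643 CPM and PCDHGC4 1.30 ± 0.0434 CPM, and the other 34 of 37 genes were not expressed.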

How the data were processed

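Total RNA of transfected HEK293T cells was sequenced by the BGI service, and the authors deposited 1 table of estimated counts per gene for all 12 libraries. The submitters' processing notes name GRCh37.p13 and the study's methods name DNASTAR Lasergene software. The sources used here give no counting rule, use of strand or selection of poly(A) RNA. The deposited estimated counts give 0.009 where a gene had no read (45.3% of the values of the 3 empty vector libraries). Among values of 0.5 or more, 5.91% had a fractional part. A supplementary table of the study heads such values RPKM. Since genes of any length had whole numbers, which division by gene length would not leave, the values were used as counts, and this unit was inferred from the values.

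Counts of the 3 empty vector libraries, which the study describes as biological triplicates, were rounded to whole numbers and divided by the library total (CPM). The 26 genes named by a number held 0.156% of the counts and are not named. TPM used the longest transcript of each gene in GENCODE release 29, known for 12458 of 13634 expressed genes (91.4%), which carry 97.2% of all counts. Since the builds differ, no gene coordinates are given except the RefSeq windows of GRCh38.p14. RefSeq gene types matched 32989 of 38019 names. No groups were compared and no test was run. Values are mean ± SD (n = 3), and p-values are not given. A floor of 3 counts equals 0.221 CPM in 1 library. Floors and SDs cover counting error and the spread of these cultures only. edgeR 4.0.16 in R 4.3.3 gave the scaling factors by TMM, the filterByExpr filter and the biological coefficient of variation, DESeq2 1.42.0 gave alternative size factors, and Python 3.11.15 with pandas 2.3.3 and matplotlib 3.10.9 the rest. The estimate of the biological coefficient of variation and the ranking of genes by CV were tried on simulated counts, at set spreads larger than the one found here. Other steps were not tested on simulated data. The 3 libraries differed by more than sampling noise, with a mean chi-square per expressed gene between pairs of 2.36 to 3.80, so none was a copy of another.

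The members and lists were chosen with earlier results of these data known. The genes named were taken by rule from the 20 most abundant genes, the up to 6 highest members of each list or family, all members of lists of at most 12 and families of at most 15, list members with no count, expressed members of silent families (under 5% expressed), and the 10 most and 10 least variable genes with a mean of at least 100 counts. Other members were named because they define a cell type or pathway, and were chosen after their values were seen. Some list members are not reported here, though the counts of each list include them. Alternatives tried were TMM and DESeq2 scaling, thresholds of 0.5 and 2 CPM, a mean of 1 CPM, filterByExpr, 1 TPM, the fill-in value alone as no count, omission of mitochondrial genes, median transcript length, a minimum of 10 CPM for promoters, promoters without the largest silent families, and omission of each library in turn.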

Additional observations from a re-analysis of the deposited data

How the results depend on the processing

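The number of expressed genes, 13634, was the same with TMM or DESeq2 scaling, and lay between 12388 (1 TPM) and 14804 (0.5 CPM) at the other thresholds. A gene without a known transcript length could not pass at 1 TPM, so counts at that threshold partly reflect missing lengths. Leaving out 1 library in turn gave 13753 to 13795 expressed genes, 15569 to 15700 genes with no count, 954 to 963 genes holding 50% of the counts and a median CV of 4.40 to 4.85%. That median CV is over fewer libraries than the 5.66% given above and does not compare with it directly. Leaving out a library gave a biological coefficient of variation of 0.0336 to 0.0398. Over genes of at least 100 counts 0.0366 was found, an alternative chosen after seeing the data. Without mitochondrial genes the 10 most abundant genes took 3.46% in place of 6.38% of the counts (6.13 to 6.69% without 1 library), and the machinery families 13.4% in place of 12.5% (12.3 to 12.6%). The highest member per length was kept in 13 of 19 families with the median transcript length, and in 18 or 19 without 1 library. Of 116 lists and families, the count of expressed members moved by over 1.5 times in 12 at 0.5 CPM, in 13 at 1 TPM, in 4 without replicate 1, in 2 without replicate 2 and in 0 without replicate 3. At this depth, levels near 1 CPM rest on about 14 counts. No paired analysis was possible because only 1 condition was described and no test was run.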

Other observations

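Some genes varied between the 3 empty vector libraries far beyond the usual 5.66%. Among the 10334 expressed genes with a mean of at least 100 counts, 1032 had a CV above 10% and 38 a CV above 20%. The largest was that of the read-through gene HNRNPUL2-BSCL2, with 15.4, 2.94 and 36.6 CPM, a CV of 92.9%. BSCL2, the gene of the lipid droplet protein seipin that this name overlaps, ran the opposite way with 29.2, 36.2 and 18.1 CPM, and LBHD1 had 5.97, 9.72 and 11.8 CPM. Next came CD3EAP, a subunit of RNA polymerase I, with 9.06, 16.3 and 27.5 CPM, and INMT-FAM188B with 3.39, 10.7 and 9.41 CPM. The others of the 10 most variable were LOC107985139, LOC105379049, LRRC24, MIEF2 and UXT-AS1, of which LRRC24 had 18.1, 10.1 and 17.7 CPM. At the other end SS18L2 had 145 counts in every library, MAN1A1, a mannosidase of the Golgi, had 1657, 1661 and 1663 counts, and the proteasome gene PSMD2 had 5449, 5437 and 5455 counts. The others of the 10 least variable were SEPHS2, FAM69B, ARID2, RTCA, MSRB1, RPA1 and AMDHD2.

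Long noncoding RNAs with high counts included SNHG1, a host of small nucleolar RNAs, at 213 ± 2.68 CPM, MALAT1 of nuclear speckles at 115 ± 11.95 CPM and NEAT1 of paraspeckles at 63.4 ± 8.65 CPM. TERT, the catalytic subunit of telomerase, had 3.24, 2.21 and 2.79 CPM. IGF2BP1, a fetal RNA-binding protein that is no member of a list, had 83.6 ± 1.66 CPM. These genes were chosen after their values were seen.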
